A study of Mus musculus with 4 samples.

Results

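TRBV3 and TRBV26 are variable segments of the mouse T cell receptor (TCR) β locus. They were chosen from the TCRβ clones of this series because earlier results of the same data showed clones of both segments from which bases inside the V sequence are absent. A clone here is a distinct sequence from framework region 1 (FR1) to framework region 4 (FR4), and every clone whose first listed V segment was TRBV3 or TRBV26 was taken. This gave 43010 of 382531 clones, with 175974 of 1798641 reads, of which 21556 clones were TRBV3 and 21454 clones were TRBV26. None of these clones had a further V segment listed.

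The libraries came from CD4+ T cells of the spleen that were TCRβ+, CD25- and not stained by the αGalCer-loaded CD1d tetramer, so that invariant NKT cells and CD25-expressing cells were left out of the sort. 2 wild type (WT) C57BL/6 mice were compared with 2 Tet2/3 DKO mice (Tet2 -/- Tet3 flx/flx CD4Cre), with an average age of 25 days. The TET proteins TET2 and TET3 are dioxygenases that oxidise 5-methylcytosine. In the Tet2/3 DKO mice Tet2 is deleted in all cells, and Tet3 is deleted in T cells because Cre is driven by Cd4. TCR transcripts were amplified from RNA by 5' RACE, and the 4 libraries held from 365421 to 569678 TCRβ reads and from 81127 to 104017 clones. The tables hold TCR transcripts only, so the CD4 T cell label could not be checked against marker genes. Without unique molecular identifiers the reads are copies made by PCR, and intervals on shares of reads cover counting error only.

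A TCRβ chain is encoded by a V, a D and a J segment joined in the thymus, and by a constant region. The V segment encodes FR1, CDR1, FR2, CDR2 and most of FR3, and CDR1 and CDR2 are loops that contact mainly the MHC molecule. CDR3 spans the V-D-J join, so its length decides whether the J and constant regions are read in frame. A V gene has a leader exon and a V exon separated by an intron that is removed by splicing, and introns nearly always begin with GT and end with AG. Splicing at such bases within the V exon removes part of the V domain from the transcript.

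RefSeq (GRCm38.p6) lists Trbv3, the V beta 16 segment, at chr6:41048394-41048824 and Trbv26, the V beta 3 segment, at chr6:41227525-41227913. The most abundant intact sequence of each segment in the deposited tables was used as its reference. Its V part, from the first base of FR1 to the last base before CDR3, is 273 nucleotides (nt) long in both segments, and positions below are counted from 1 at the first base of FR1. In both, FR1 covers bases 1 to 78, CDR1 bases 79 to 93, FR2 bases 94 to 144, CDR2 bases 145 to 162 and FR3 bases 163 to 273. The sequences are shown, for TRBV3 from base 127 and for TRBV26 from base 1 to base 273, because the missing stretches carry the finding. Capitals mark the stretch that is absent from the most frequent shortened form.
TRBV3 from base 127, bases 155 to 247 missing: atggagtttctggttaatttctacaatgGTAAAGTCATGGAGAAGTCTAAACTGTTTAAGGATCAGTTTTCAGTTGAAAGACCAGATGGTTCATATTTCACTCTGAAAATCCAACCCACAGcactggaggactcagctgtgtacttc
TRBV26, bases 66 to 150 missing: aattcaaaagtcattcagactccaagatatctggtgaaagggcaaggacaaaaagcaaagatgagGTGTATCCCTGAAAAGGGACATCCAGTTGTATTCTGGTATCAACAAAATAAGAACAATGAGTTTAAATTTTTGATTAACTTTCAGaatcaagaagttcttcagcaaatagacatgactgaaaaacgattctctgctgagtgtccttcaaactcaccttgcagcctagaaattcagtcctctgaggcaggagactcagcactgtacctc

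The share of TCRβ reads that carried TRBV3 was close to 5% in every library. It was 5.11% in WT replicate 1 (95% Wilson interval 5.04% to 5.19%), 5.25% in WT replicate 2 (5.19% to 5.315%), 4.998% in Tet2/3 DKO replicate 1 (4.93% to 5.06%) and 5.27% in Tet2/3 DKO replicate 2 (5.21% to 5.33%). The values of both genotypes overlapped, with means of 5.18% ± 0.097 (SD, n = 2) for WT and 5.13% ± 0.19 (SD, n = 2) for Tet2/3 DKO. TRBV26 held 4.71%, 4.37%, 4.57% and 4.78% of reads in the same order of libraries, 4.54% ± 0.24 (SD, n = 2) in WT and 4.68% ± 0.15 (SD, n = 2) in Tet2/3 DKO. These also overlapped. In bulk samples, fewer cells with a segment and less TCR RNA per cell cannot be told apart.

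The difference between genotypes was smaller than its error for both segments. By edgeR's quasi-likelihood test over 24 TRBV segments, the log2 difference of Tet2/3 DKO minus WT was -0.01 (SE 0.13, adjusted p = 0.96) for TRBV3 and 0.04 (SE 0.13, adjusted p = 0.903) for TRBV26. The test called 0% of the 24 segments, with 1 at an unadjusted p under 0.05, which was neither TRBV3 nor TRBV26. DESeq2 called 1 segment, again neither of these. Without Tet2/3 DKO replicate 1, which leaves 1 Tet2/3 DKO library, the edgeR log2 differences were 0.024 for TRBV3 and 0.075 for TRBV26. The mice are separate animals, so the spread is biological, but 2 per genotype give a coarse estimate of it.

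By mean share over the 4 libraries TRBV3 ranked 8 and TRBV26 ranked 9 of 24 TRBV segments. TRBV3 was above TRBV26 in each library, and its lowest share, 4.998%, was above the highest of TRBV26, 4.78%. The segment ranked above TRBV3 was TRBV15, whose shares of 4.53% to 7.92% overlapped those of both. The segment ranked below TRBV26 was TRBV1, and its highest share, 4.15%, lay under the lowest of TRBV26, 4.37%. When each clone was counted once, the order of TRBV3 and TRBV26 was not kept. TRBV3 then held 5.43% to 5.80% of clones and TRBV26 held 5.17% to 6.03%.

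**Figure D1:**
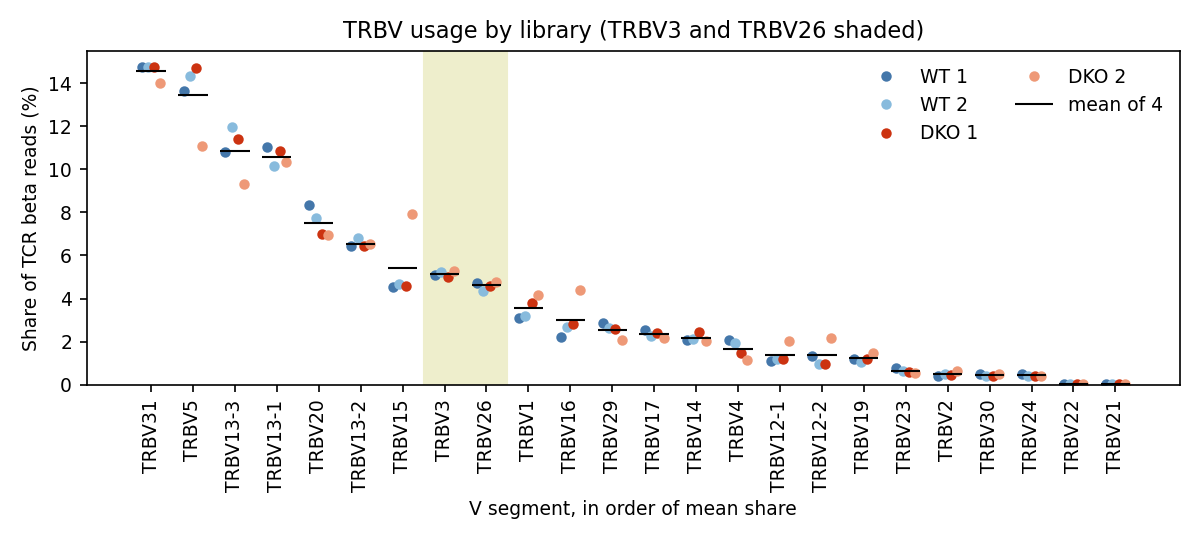
Share of TCRβ reads (%, y axis) of each of 24 TRBV segments in order of mean share (x axis). Points are the 4 libraries and bars their means. TRBV3 and TRBV26 are shaded, and their shares lie between 4.37% and 5.27% in all 4 libraries.

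The most used J partner of both segments was TRBJ2-7. The 12 TRBJ segments lie in the TRBJ1 and TRBJ2 clusters, and each encodes the end of CDR3 and FR4. TRBJ2-7 held 26.6% and 24.7% of TRBV3 reads in WT mice and 25.8% and 23.5% in Tet2/3 DKO, a mean of 25.1% ± 1.4 (SD, n = 4). In reads of all other V segments it held 20.9% to 21.6%, so TRBV3 was higher in 4 of 4 libraries. For TRBV26 the share of TRBJ2-7 was 20.8% and 19.5% in WT mice and 19.0% and 23.6% in Tet2/3 DKO, which overlapped that of other V segments.

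The least used partner differed between the segments. TRBJ1-6 held 0.819% and 0.709% of TRBV3 reads in WT mice and 1.10% and 2.14% in Tet2/3 DKO, against 2.46% to 2.79% of the reads of other V segments. All 4 TRBV3 values lay below all 4 values of the other V segments. For TRBV26 the smallest share was that of TRBJ1-5, with 1.17% and 1.31% in WT mice and 1.34% and 1.52% in Tet2/3 DKO, against 1.98% to 2.34% for other V segments.

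Each library's J counts of a segment were set against those of all other V segments by edgeR's quasi-likelihood test, with the library as a block and p-values adjusted over the 24 tests of both segments. It called 11 of 24, or 45.8%. For TRBV3, 6 of 12 TRBJ segments passed (50%), 2 higher (16.7%) and 4 lower (33.3%). TRBJ1-2 was higher by 0.41 on the log2 scale (SE 0.08, adjusted p = 0.0128) and TRBJ2-7 by 0.24 (SE 0.07, adjusted p = 0.0407), both in 4 of 4 libraries. TRBJ1-6 fell by 1.26 (SE 0.29, adjusted p = 0.022), and TRBJ1-1, TRBJ1-4 and TRBJ1-5 fell by 0.40, 0.33 and 0.39, each lower in 4 of 4 libraries. With DESeq2 TRBJ1-4 did not pass (adjusted p = 0.0698). None of these 6 passed without WT replicate 1 or without WT replicate 2, and 3 passed without Tet2/3 DKO replicate 1, with no change of direction. Without Tet2/3 DKO replicate 2, 8 TRBJ segments passed, the same 6 among them.

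For TRBV26, 5 of 12 TRBJ segments passed against other V segments (41.7%), 3 higher (25%) and 2 lower (16.7%). TRBJ1-3 was higher by 0.57 (SE 0.07, adjusted p = 4.02e-09) and held 6.66%, 7.27%, 8.36% and 6.46% of reads against 4.59% to 4.96%. TRBJ1-2 was higher by 0.32 and TRBJ2-4 by 0.18 on the log2 scale. The TRBJ2-4 call was lost with each clone counted once (0.067, adjusted p = 0.102, edgeR) and without each library other than Tet2/3 DKO replicate 1, and the value was 0.072 without rearrangements of over 50 reads. TRBJ1-5 fell by 0.65 (SE 0.08, adjusted p = 4.02e-09) and TRBJ2-5 by 0.40 (SE 0.06, adjusted p = 2.69e-06). All 5 had the same direction in 4 of 4 libraries. With each library left out in turn, from 4 to 7 TRBJ segments passed.

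TRBJ1-2 was higher and TRBJ1-5 lower in both segments than in other V segments. As a description over 12 mean TRBJ shares, the segments with the J profile most like that of TRBV3 among 21 others with at least 1000 reads were TRBV26, with a summed absolute difference of 13.8 percentage points, and TRBV13-2, with 14.2. For TRBV26 they were TRBV23, with 12.1, and TRBV13-2, with 12.9. The summed difference from TRBV26 to TRBV3 ranked 4 in that list.

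With all 4 libraries, no pairing of TRBV3 or TRBV26 with a TRBJ segment differed between genotypes past the threshold. Of 285 TRBV-TRBJ pairs tested by edgeR 0% were called, with 29 at an unadjusted p under 0.05. DESeq2 also called 0, with 22 at an unadjusted p under 0.05. The largest difference among the 24 pairs of both segments was that of TRBV3 with TRBJ1-6, 1.09 on the log2 scale (SE 0.45, adjusted p = 0.424). TRBV3 with TRBJ1-3 was at 0.91 (SE 0.32, adjusted p = 0.283), with shares of 4.04% and 4.32% in WT mice and 5.03% and 10.7% in Tet2/3 DKO. One TRBJ1-3 clone of Tet2/3 DKO replicate 2 held 1534 reads, 5.11% of the TRBV3 reads of that library. Without rearrangements of over 50 reads, a choice made after seeing the data, none of the 24 pairs had an unadjusted p under 0.05. A fit without 1 Tet2/3 DKO library takes its spread from the WT mice alone. Its calls were therefore not read as differences between genotypes, for pairs of TRBV3 and TRBV26 or for any other. They enter only the ranges of counts given for the removal of each library. Without Tet2/3 DKO replicate 1, which leaves replicate 2 as the only Tet2/3 DKO library, the highest log2 difference among the 24 pairs was 1.51. When Tet2/3 DKO replicate 2 was left out instead, the highest difference among the 24 pairs was 0.48. With each clone counted once the highest was also 0.48.

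TRBV3 transcripts were almost all in frame. A CDR3 was counted as in frame when its length was a whole number of codons and it held no stop codon. An in-frame CDR3 was found in 99.2% and 99.1% of TRBV3 reads in WT mice, and in 99.1% and 99.2% in Tet2/3 DKO, and the genotype means differed by 0.016 percentage points (exact two-sided permutation test, p = 0.667). The smallest p that 2 against 2 libraries allow is 0.333. The genotype difference turned to -0.21 percentage points with each clone counted once and to -0.080 over full-length clones. In reads of other V segments the in-frame share was 97.2% to 97.5%, so TRBV3 lay 1.83 percentage points ± 0.13 (SD, n = 4) higher, in 4 of 4 libraries (exact two-sided sign-flip permutation test, p = 0.125, the smallest that 4 libraries allow). TRBV26 was in frame in 98.2% and 98.0% of reads in WT mice and 97.7% and 98.4% in Tet2/3 DKO. This was 0.695 percentage points ± 0.21 (SD, n = 4) above other V segments, again in 4 of 4 libraries (exact permutation p = 0.125), and 1.197 percentage points with each clone counted once.

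CDR3 lengths of both segments lay within 0.3 amino acids of the mean of other V segments. The read-weighted mean length of in-frame CDR3s, with the flanking cysteine and phenylalanine counted, was 13.4 and 13.6 amino acids for TRBV3 in WT mice and 13.6 and 13.6 in Tet2/3 DKO. The difference from other V segments was -0.10 ± 0.098 (SD, n = 4; exact permutation p = 0.25), negative in 3 of 4 libraries, and -0.062 without WT replicate 1. TRBV26 CDR3s were 13.5 and 13.5 amino acids long in WT mice and 13.5 and 13.3 in Tet2/3 DKO. They were shorter than those of other V segments in 4 of 4 libraries, by -0.17 ± 0.042 (SD, n = 4; exact permutation p = 0.125). Between genotypes the mean lengths differed by 0.071 amino acids for TRBV3 (exact permutation p = 0.667) and by -0.11 for TRBV26 (exact permutation p = 0.333). The TRBV3 difference was 0.0037 without WT replicate 1 and 0.14 without WT replicate 2. The TRBV26 difference was -0.20 without Tet2/3 DKO replicate 1, -0.021 without Tet2/3 DKO replicate 2 and -0.040 with each clone counted once.

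Both segments were chosen for shortened transcripts, so the levels of these are given as a description without a test. A clone was called shortened when at least 20 nt were missing between the start of FR1 and CDR3 and the sequence on both sides of the gap matched the reference. In TRBV3, 9.51% and 9.02% of reads were shortened in WT mice and 6.82% and 7.18% in Tet2/3 DKO. In TRBV26 the shares were 6.62% and 5.09% in WT mice and 5.28% and 3.61% in Tet2/3 DKO. Together the 2 segments held 11599 of the 15648 shortened TCRβ reads, 74.1%, and 9.78% of all TCRβ reads. The next segment was TRBV4 with 3.53% to 4.40%, and TRBV12-1 and TRBV17 followed with means of 0.596% and 0.573%.

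The threshold of 20 nt fell in an empty range. The largest gap below it was 8 nt in TRBV3 and 12 nt in TRBV26, and the smallest above it was 26 nt in both, found in 1 clone each. Of the 1921 shortened TRBV3 clones 1919 lacked 80 to 150 nt, and so did 1122 of the 1125 shortened TRBV26 clones. A further 361 TRBV3 and 59 TRBV26 clones could not be aligned in this way and were counted neither as shortened nor as full-length.

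**Figure D2:**
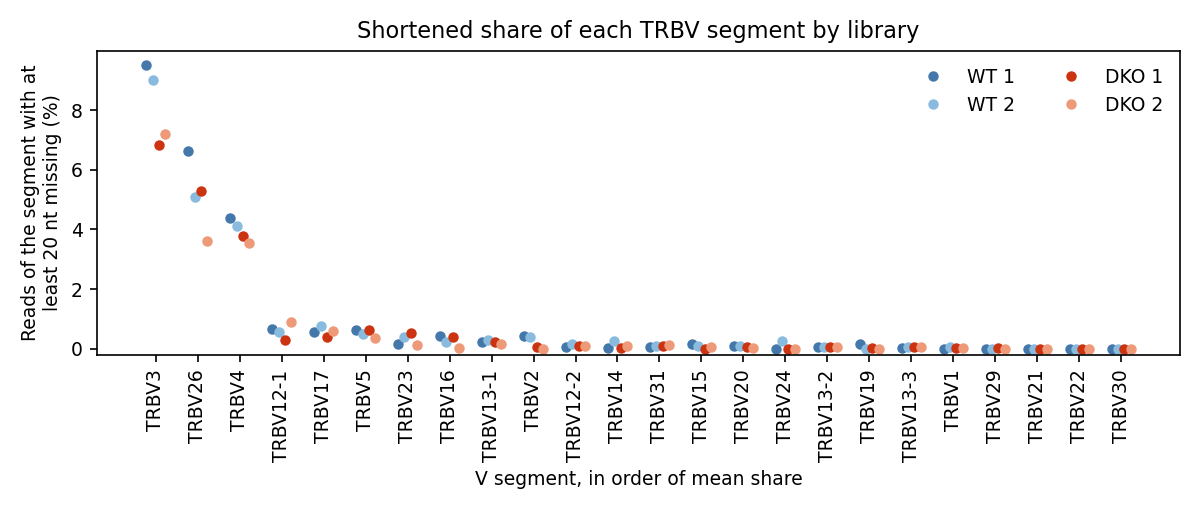
Percentage of each TRBV segment's reads with at least 20 nt missing from the V part (y axis), by segment in order of the mean (x axis). Points are the 4 libraries. TRBV3 lies at 6.82% to 9.51% and TRBV26 at 3.61% to 6.62%, and all segments after TRBV4 lie under 1%.

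In TRBV3 the WT shares of shortened reads were both above the Tet2/3 DKO shares, whereas in TRBV26 the genotypes overlapped. The genotype effect on shortened over full-length reads was tested in 1 edgeR model over 18 TRBV segments with an interaction term. The log2 difference of Tet2/3 DKO minus WT was -0.44 (SE 0.31, adjusted p = 0.715) in TRBV3 and -0.43 (SE 0.40, adjusted p = 0.715) in TRBV26. The test called 0% of the 18 segments, with 1 at an unadjusted p under 0.05, and DESeq2 called 0, with 2 at an unadjusted p under 0.05. TRBV3 and TRBV26 were not among those segments. By this test the difference did not pass the threshold in either segment, and a p that misses the threshold does not show that the genotypes are alike. The TRBV26 value depended on single libraries, at -0.72 when Tet2/3 DKO replicate 1 was left out, -0.15 when Tet2/3 DKO replicate 2 was, and -0.23 when WT replicate 1 was. It was -0.25 with each clone counted once.

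TRBV3 had a single dominant shortened form. Of the 7478 shortened TRBV3 reads 98.7% lacked bases 155 to 247, a stretch of 93 nt that begins with GT and ends with AG. This form held 9.35% and 8.92% of TRBV3 reads in WT mice and 6.72% and 7.10% in Tet2/3 DKO, with 1892 clones in all. The stretch takes the last 8 nt of CDR2 and 85 nt of FR3, and it keeps the cysteine codon of FR1 at bases 67 to 69 and the tryptophan codon of FR2 at bases 100 to 102, which are conserved in V domains. It removes 31 codons and no stop codon arises at the join. The base next to the gap is the same on either side, so its place is uncertain by 1 nt, and it was set to the position that reads GT to AG. The sequence across the join is shown with the last base before it and the first base after it in capitals.
TRBV3 join of bases 154 and 248: ttaatttctacaatGCactggaggactcag

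The other TRBV3 stretch found in all 4 libraries was rare. It spanned bases 124 to 208, 85 nt, with 44 reads in 11 clones, and it did not begin with GT and end with AG. A run of 7 nt is the same at both of its ends, and the reading frame after it meets a stop codon 22 nt after the join.

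TRBV26 had 3 recurrent shortened forms, each found in all 4 libraries and each reading GT to AG. The place of the gap is uncertain by 2 nt in the form from base 66. It is uncertain by 1 nt in those from bases 102 and 34. As in TRBV3, each gap was set to the position that reads GT to AG. The form that lacks bases 66 to 150, 85 nt, held 72.9% of the 4121 shortened TRBV26 reads. It made up 4.98% and 3.82% of TRBV26 reads in WT mice and 3.93% and 2.41% in Tet2/3 DKO. It loses the last 13 nt of FR1, all of CDR1 and FR2, and 6 nt of CDR2, and with them both conserved codons. As 85 is not a multiple of 3, the frame shifts, and a TAG stop codon follows 23 nt after the join.

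The form that lacks bases 102 to 227, 126 nt, held 0.732% and 0.716% of TRBV26 reads in WT mice and 0.684% and 0.544% in Tet2/3 DKO. It removes 42 codons in frame, from the tryptophan codon of FR2 through CDR2 into FR3. The form that lacks bases 34 to 150, 117 nt, held 0.738% and 0.504% in WT mice and 0.625% and 0.529% in Tet2/3 DKO. It removes 39 codons in frame and ends at the same AG as the most frequent form, but begins 32 nt earlier. In both forms no stop codon arises at the join. The 3 starts and the 2 ends are shown with the missing bases in capitals.
TRBV26 start at base 66: caaagatgagGTGTATCCCT
TRBV26 start at base 102: ttgtattctgGTATCAACAA
TRBV26 start at base 34: aagatatctgGTGAAAGGGC
TRBV26 end at base 150: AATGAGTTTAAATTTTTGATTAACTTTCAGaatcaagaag
TRBV26 end at base 227: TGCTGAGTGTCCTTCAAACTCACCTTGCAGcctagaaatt

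The first and last 6 bases of each stretch were searched on the sense strand in the V parts of the 24 TRBV segments, as a description of sequence only. GTAAAG, at the start of the TRBV3 stretch, was in 1 of 24 segments (4.17%), and CCACAG, at its end, in 2 (8.33%). GTGTAT, at the start of the most frequent TRBV26 stretch, was in 5 (20.8%), and TTTCAG, at its end, in 7 (29.2%). GTATCA was in 6 (25%), TTGCAG in 1 and GTGAAA in 1. A match is not a splice site, and use of these bases by the splicing machinery was not tested.

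**Figure D3:**
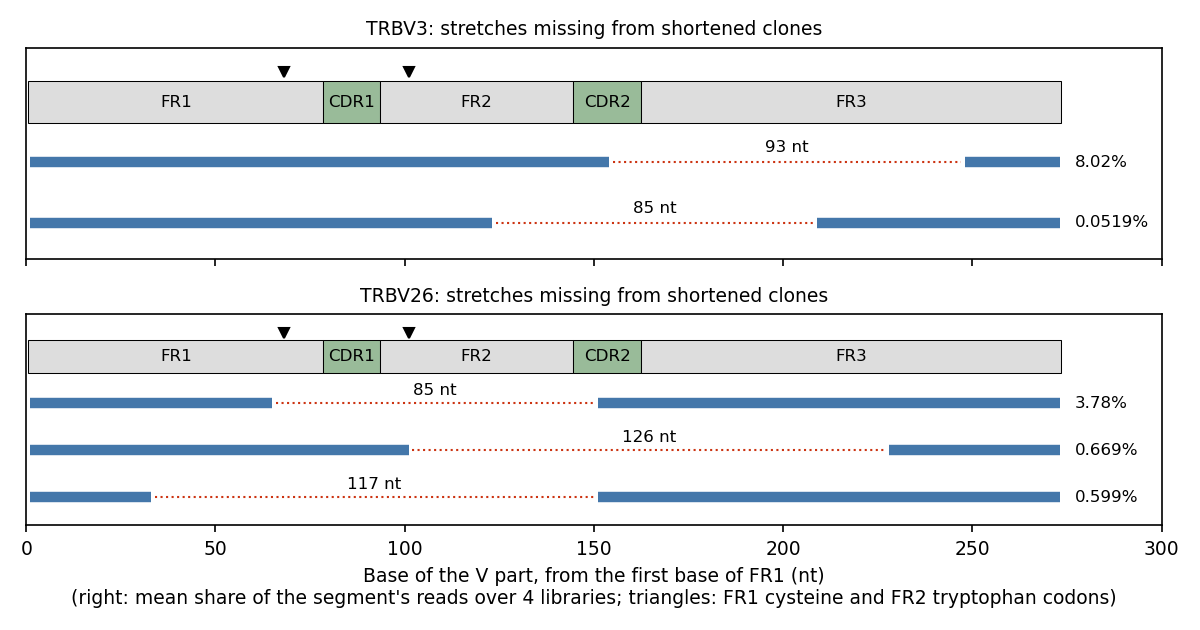
Map of the stretches missing from shortened clones along the 273 nt of the V part (x axis, nt from the start of FR1). Blue lines are bases present, dotted lines bases missing, with the mean share of the segment's reads at the right, and triangles mark the conserved codons. The TRBV3 form at 8.02% keeps both codons, and the TRBV26 form at 3.78% lacks both.

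The in-frame shares of shortened and full-length TRBV3 clones overlapped across the libraries. The in-frame share of shortened TRBV3 reads stood at 99.1% and 97.6% in WT mice and 98.997% and 99.7% in Tet2/3 DKO, against 99.1% to 99.3% in full-length reads. The difference was -0.35 percentage points ± 0.91 (SD, n = 4; exact permutation p = 0.625), and its sign turned without WT replicate 2, to 0.078. The deposited tables listed no CDR3 for 1918 of the 1921 shortened TRBV3 clones, so it was read from the sequence between the V part and FR4.

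Shortened TRBV26 reads were less often in frame than full-length ones in 4 of 4 libraries. The in-frame share stood at 91.8% and 89.1% in WT mice and 92.3% and 92.3% in Tet2/3 DKO, against 98.0% to 98.6% in full-length reads. The difference was -7.07 percentage points ± 1.6 (SD, n = 4; exact permutation p = 0.125, the smallest that 4 libraries allow), and shortened and full-length values did not overlap. The reverse view took TRBV26 reads whose CDR3 was not in frame, by its length or by a stop codon. Of these, 29.9% and 28.3% in WT mice and 17.7% and 17.6% in Tet2/3 DKO were shortened. Of the in-frame reads 3.397% to 6.20% were shortened.

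The lower share was found in the frame-shifting form. Clones that lacked bases 66 to 150 had an in-frame CDR3 in 89.1% and 85.5% of reads in WT mice and 89.8% and 89.8% in Tet2/3 DKO. The 126-nt form was in frame in 100% of reads in all 4 libraries and the 117-nt form in 98.6% to 100%, with at least 100 reads of each form in a library. Because the V part of the 85-nt form is itself out of frame, 0% of its reads were open from FR1 to FR4 without a stop codon. The 126-nt and 117-nt forms were open in 98.6% to 100% of reads, and the TRBV3 form of 93 nt in 97.7% to 99.6%. Full-length TRBV26 reads were open in 96.8% to 97.8% and full-length TRBV3 reads in 98.5% to 98.7%.

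**Figure D4:**
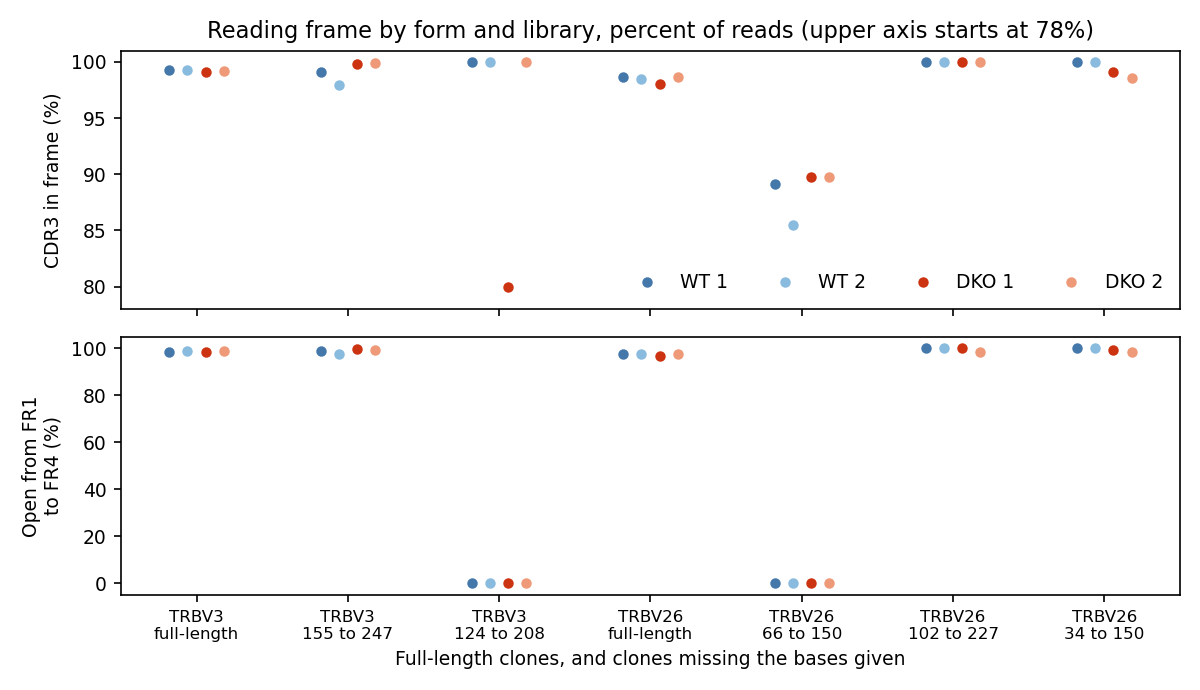
Percentage of reads with an in-frame CDR3 (upper axis, from 78%) and percentage open from FR1 to FR4 (lower axis, from 0) for full-length clones and each missing stretch (x axis). Points are the 4 libraries. The TRBV26 form without bases 66 to 150 lies at 85.5% to 89.8% in the upper plot and at 0% in the lower. The TRBV3 form without bases 124 to 208 rests on 3 to 16 reads a library.

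Shortened TRBV3 clones differed from full-length TRBV3 clones of the same library in the shares of several J partners. In the edgeR test of shortened against full-length reads, with the library as a block and p-values adjusted over both segments, 10 of 24 TRBJ tests passed, 41.7%. In TRBV3 7 of 12 passed (58.3%), 3 higher (25%) and 4 lower (33.3%). TRBJ1-2 held 9.29% and 6.28% of shortened reads in WT mice and 9.46% and 9.65% in Tet2/3 DKO, against 5.29% to 6.37% of full-length reads. It was 0.54 higher on the log2 scale (SE 0.15, adjusted p = 0.00483). TRBJ2-1 and TRBJ2-2 were higher by 0.34 and 0.44, and all 3 were higher in 4 of 4 libraries. TRBJ2-1 did not pass when at least 50 nt had to be missing (edgeR, adjusted p = 0.055), over GT to AG stretches only (adjusted p = 0.0595) or without rearrangements of over 50 reads (adjusted p = 0.127).

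4 TRBJ segments were lower in shortened TRBV3 reads. TRBJ2-3 held 7.26%, 5.58%, 3.58% and 5.34% against 7.04% to 9.71% of full-length reads, and fell by 0.61 (SE 0.15, adjusted p = 0.00324). TRBJ2-4 held 7.32%, 9.30%, 11.6% and 7.94% against 11.8% to 14.7%, and fell by 0.57 (SE 0.15, adjusted p = 0.00324). TRBJ1-3 fell by 0.52, like these lower in 4 of 4 libraries. TRBJ1-1 fell by 0.43 and was lower in 3 of 4 libraries. TRBJ2-7 stayed the most used partner, with 25.01% to 32.9% of shortened reads (log2 difference 0.21, SE 0.14, adjusted p = 0.205). With each clone counted once 8 of 12 TRBJ segments passed in TRBV3, and TRBJ2-5 and TRBJ2-7 were then among them.

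In TRBV26 3 of 12 TRBJ segments differed between the forms (25%), 1 higher (8.33%) and 2 lower (16.7%). TRBJ1-5 held 1.84%, 2.48%, 3.74% and 2.03% of shortened reads against 1.13% to 1.51% of full-length reads, and was 0.97 higher (SE 0.25, adjusted p = 0.00324). TRBJ1-3 and TRBJ2-3 fell by 0.65 and 0.56, in 4 of 4 libraries each. TRBJ1-3 and TRBJ2-3 passed as lower in both segments, and no TRBJ passed as higher in both. With each clone counted once, TRBJ1-3 no longer passed in TRBV3 (-0.34, edgeR, adjusted p = 0.123) nor TRBJ2-3 in TRBV26 (-0.42, adjusted p = 0.0845). TRBJ2-3 in TRBV26 also missed the threshold with at least 50 nt missing (adjusted p = 0.0577) and over GT to AG stretches only (adjusted p = 0.0648). No TRBJ share of either segment that passed turned its direction when a library was left out. The calls did depend on single libraries, with 3, 6, 1 and 2 of 12 in TRBV3 without WT replicate 1, WT replicate 2, Tet2/3 DKO replicate 1 and Tet2/3 DKO replicate 2. In TRBV26 the corresponding numbers were 1, 2, 1 and 1. Whether clone assembly recovers shortened reads equally well with each TRBJ was not tested.

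**Figure D5:**
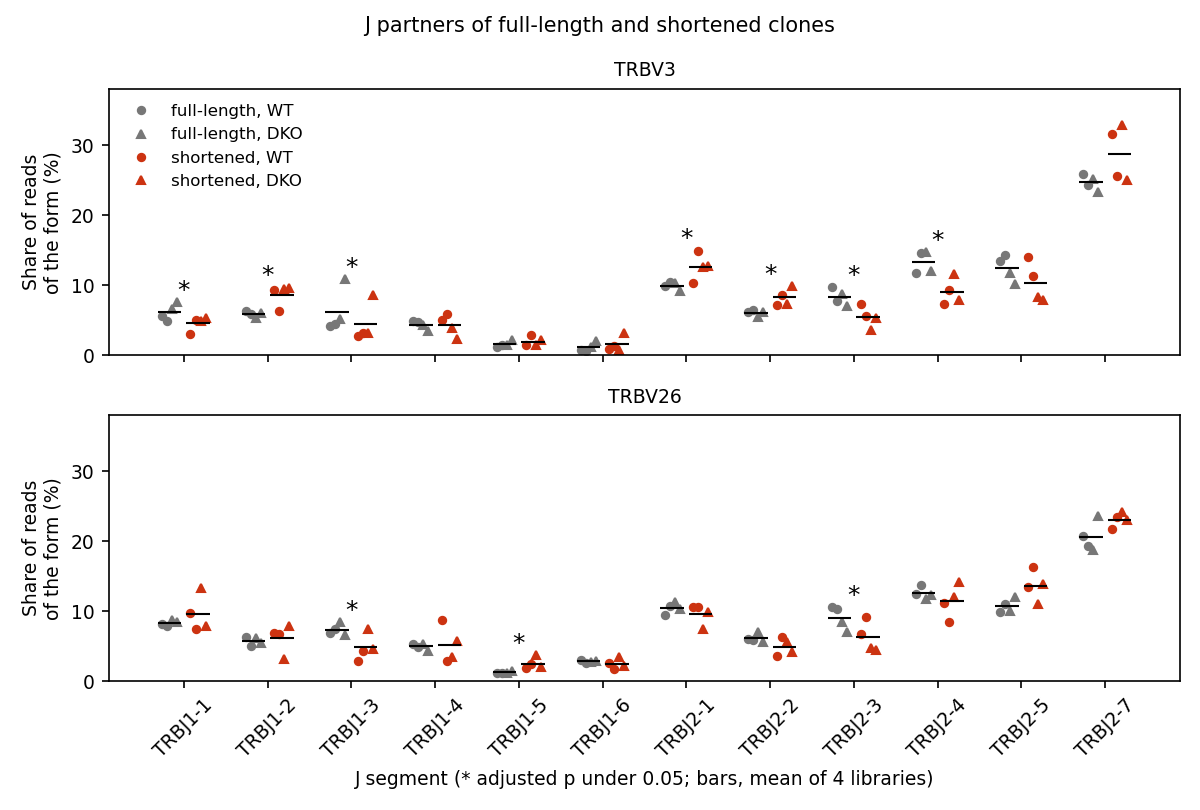
Share of reads (%, y axis) of each TRBJ segment (x axis) in full-length (grey) and shortened (red) clones of TRBV3 and TRBV26, per library. Circles are WT, triangles Tet2/3 DKO, bars the means, and asterisks mark an adjusted p under 0.05. TRBJ2-3 lies lower in shortened clones of both segments, at 3.58% to 7.26% in TRBV3 and 4.47% to 9.22% in TRBV26.

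The sizes of shortened and full-length clones were compared in each library. The median was 3 reads per clone for both forms of both segments in every library. Mean reads per shortened TRBV3 clone were 3.58 and 3.99 in WT mice and 3.67 and 4.26 in Tet2/3 DKO, against 4.17, 4.22, 3.91 and 5.07 for full-length clones. The log2 ratio was -0.16 ± 0.087 (SD, n = 4; exact permutation p = 0.125), lower in 4 of 4 libraries. With clones merged by J and CDR3 it was -0.081 (exact permutation p = 0.5). Clones with 1 read made up 26.0%, 28.9%, 28.4% and 26.9% of shortened TRBV3 clones against 24.0%, 23.2%, 25.4% and 25.8% of full-length ones, a difference that was not tested. In TRBV26 shortened clones had 3.49, 4.05, 3.596 and 3.58 reads and full-length ones 3.57, 3.81, 3.63 and 4.38, with a log2 ratio of -0.062 ± 0.16 (SD, n = 4; exact permutation p = 0.625). This ratio turned to 0.014 without Tet2/3 DKO replicate 2.

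The largest full-length TRBV3 clones held 140 and 694 reads in WT mice and 324 and 1534 in Tet2/3 DKO, and the largest shortened ones 18, 28, 25 and 96. In both Tet2/3 DKO libraries the largest shortened TRBV3 clone had the same J segment and the same CDR3 nucleotide sequence as the largest full-length one. In Tet2/3 DKO replicate 2 this TRBJ1-3 rearrangement had 1592 full-length and 99 shortened reads, so that 5.85% of its reads were shortened. In replicate 1 a TRBJ2-7 rearrangement had 325 full-length and 25 shortened reads, or 7.14%. For TRBV26 the largest clone of Tet2/3 DKO replicate 2, with TRBJ2-7, had 730 full-length and 21 shortened reads, or 2.80%. The CDR3 sequences of these rearrangements are given because the same rearrangement was the largest clone of both forms in its library, with the cysteine codon at the start and the phenylalanine codon at the end.
TRBV3-TRBJ1-3, Tet2/3 DKO replicate 2: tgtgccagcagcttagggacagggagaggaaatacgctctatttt
TRBV3-TRBJ2-7, Tet2/3 DKO replicate 1: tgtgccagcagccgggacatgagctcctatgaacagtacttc
TRBV26-TRBJ2-7, Tet2/3 DKO replicate 2: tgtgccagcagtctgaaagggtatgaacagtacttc

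The largest clones were not all found in both forms. In WT replicate 1 the largest full-length TRBV3 clone, with TRBJ2-2 and 140 reads, had 0 shortened reads, and the largest shortened one, with TRBJ2-7 and 18 reads, had 0 full-length reads. In WT replicate 2 the TRBJ2-4 rearrangement of the largest TRBV3 clone had 706 full-length and 14 shortened reads, or 1.94%, and the largest shortened clone, with TRBJ2-1, stood beside 21 full-length reads. The rearrangement of the largest full-length TRBV26 clone had 110 full-length and 10 shortened reads (8.33%) in WT replicate 1, 229 and 8 (3.38%) in WT replicate 2, and 67 and 0 in Tet2/3 DKO replicate 1. The largest shortened TRBV26 clones had 16 and 15 reads in WT mice and 13 and 15 in Tet2/3 DKO, and all 4 lacked bases 66 to 150. That of WT replicate 2 had an out-of-frame CDR3 of 38 nt with TRBJ2-1, and 0 full-length reads had the same CDR3.
TRBV26-TRBJ2-1, WT replicate 2, out of frame: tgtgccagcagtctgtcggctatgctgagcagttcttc

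A rearrangement, here the combination of V, J and CDR3 nucleotides, was often found in a single form. Of shortened TRBV3 rearrangements 18.9% and 15.7% in WT mice and 14.7% and 27.7% in Tet2/3 DKO had a full-length counterpart in the same library, compared with 2.37% to 6.47% in another library. For TRBV26 the shares were 22.3%, 17.5%, 15.6% and 30.8% in the same library and 1.42% to 8.33% in another. In TRBV3 the share of full-length rearrangements with a shortened counterpart was larger among larger ones. It was 0.759% to 1.38% at 1 to 9 full-length reads, 6.10% to 13.97% at 10 to 49 reads and 37.5% to 60.0% at 50 or more reads. At 50 or more reads these were 8 to 34 rearrangements a library. For TRBV26 the share was 0.765% to 1.23% at 1 to 9 full-length reads and 2.17% to 5.71% at 10 to 49 reads. At 50 or more reads TRBV26 had only 2 to 19 such rearrangements a library, and the share ran from 0% (0 of 2, Tet2/3 DKO replicate 1) to 100% (3 of 3, WT replicate 1). Whether depth sets how often a counterpart is found was not tested.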

How the data were processed

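TCRβ clone tables of 4 splenic CD4 T cell libraries were used. The authors made libraries with a 5' RACE kit, sequenced them on a MiSeq, and, per the labels, used bcl2fastq 2.20.0 and fastp 0.21.0 with mm10. They assembled clones with MiXCR. For each clone the authors deposited a count of reads and its fraction of all TCRβ reads. All shares were computed from the counts, and the fraction was used only as a check. The TCRα tables were not used here. The members, J comparisons and missing stretches were chosen with earlier results of these data known.

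The first listed V and J segments were used without alleles. Each clone was compared with the most abundant intact sequence of its V segment, of at least 310 nt. The last 20 nt before CDR3 were located with up to 2 mismatches, and the gap was placed where both sides matched best, a GT to AG position first among equals. At least 20 nt before and 12 nt after the gap, and at most 5% mismatches, were required. CDR3 was read from there to FR4, and it equalled the listed CDR3 in 99.93% of TRBV3 clones and 99.97% of TRBV26 clones that had one. Of the 1921 shortened TRBV3 clones 1918 had none, so in TRBV3 this check bears mainly on full-length clones.

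Counts per TRBV segment and per TRBV-TRBJ pair with at least 10 reads in total were tested with edgeR 4.0.16 (quasi-likelihood), scaled by total reads. J partners and forms were tested on 2 columns per library with the library as a block. P-values were adjusted by Benjamini-Hochberg over all features of a fit, and over both segments for J partners, at a threshold of 0.05. Single values were compared by exact two-sided permutation, over 6 label assignments between genotypes and 16 sign assignments within libraries. DESeq2 1.42.0 was an alternative. The gap search was tested on simulated sequences. The genotype fit of TRBV-TRBJ pairs was tested on simulated counts, with changes larger than those of the pairs named here. The fits of J partners and forms were not tested in this way.

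For named segments and clones the rule took, per segment, the most and least used TRBJ and those past the threshold, missing stretches with at least 10 reads found in all 4 libraries (at most 5), the largest full-length and shortened clone per library, the neighbours in the order of usage, the 2 segments of most similar J profile and the 3 other segments with the largest shortened share. The TRBJ1-3 and TRBJ1-6 pairs were named after their values were seen.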

Additional observations from a re-analysis of the deposited data

How the results depend on the processing

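With 2 mice per genotype and a median of 3 reads per clone, these libraries limit what can be seen of small differences between genotypes. The comparisons were repeated with other scaling, filters and definitions of a clone, and after removal of each library. Of these comparisons no value of the shortened share, the J directions or the CDR3 differences from other V segments reversed, and the cause of the reversals below was not tested.

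The log2 usage difference of TRBV3 (main value -0.01) turned to 0.016 under TMM, 0.00999 under DESeq2 and 0.016 over full-length clones, and ranged from -0.052 to 0.024 without a library. That of TRBV26 ranged from -0.00995 to 0.099. The genotype difference of the TRBV3 in-frame share turned to -0.21 percentage points with each clone counted once, -0.080 over full-length clones and, chosen after seeing the data, -0.073 over clones with a listed CDR3, and ranged from -0.048 to 0.081 without a library. That of TRBV26 ranged from -0.40 to 0.31. The CDR3 length difference of TRBV3 between genotypes turned to -0.014 amino acids with each clone counted once. The difference in in-frame share of shortened minus full-length TRBV3 reads ranged from -0.64 to 0.078. The log2 ratio of reads per clone was 0 for both segments with the median in place of the mean, and that of TRBV26 ranged from -0.11 to 0.014 without a library.

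The count of TRBV segments past the threshold was 1 with DESeq2 and 0 to 5 without a library. The count of TRBV-TRBJ pairs was 0 to 50 without a library. In both counts the highest number came without Tet2/3 DKO replicate 1, which leaves 1 Tet2/3 DKO library. The spread then comes from the WT mice alone, so these calls were not read as differences between genotypes. TRBJ segments of TRBV3 past the threshold against other V numbered 0 to 8 without a library. Those between forms numbered 1 to 6 in TRBV3 and 1 to 2 in TRBV26.

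No pairing by replicate number was assumed. Deviations of WT replicate 1 and Tet2/3 DKO replicate 1 over 24 TRBV segments had r = 0.087. This single correlation cannot show whether same-numbered libraries were handled together. With the replicate number as a block, the log2 usage difference was -0.01 for TRBV3 and 0.04 for TRBV26, that of the shortened share -0.44 and -0.43, and 2 TRBV-TRBJ pairs passed, neither of TRBV3 nor TRBV26. Rearrangements of over 50 reads and forms other than the most frequent one were left out as alternatives chosen after seeing the data, and neither reversed a direction.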
